A study of Mus musculus with 2 samples.

Results

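The genes described here are those of the tumour necrosis factor (TNF) superfamily, its receptors, the adaptors that bind the receptors, and the NF-κB factors at the end of the pathway. The family was proposed with earlier results of these data known, and within it the members were taken by gene symbol. Every probe set that names 1 gene was taken where the gene symbol in the array's annotation is Tnf, a numbered Tnfsf, Tnfrsf, Traf or Tnfaip symbol, Birc2 or Birc3, or a symbol of an NF-κB subunit or IκB protein. This gave 48 genes, read by 89 probe sets, of 18193 genes named on the array. By role they were 8 ligands, 19 receptors, 8 adaptors (6 TRAF proteins and the inhibitor of apoptosis proteins Birc2 and Birc3), 4 NF-κB subunits, 4 IκB proteins and 5 proteins named for their induction by TNF. The subunit gene Nfkb1 and the adaptor gene Traf3 had no probe set naming them alone and are not among the members.

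Whole kidney RNA was measured on 2 Affymetrix arrays, 1 per group, from mice described as a model of nephronophthisis type 2. The control mice had normal inv alleles (+/+), and the cystic mice were homozygous for the inv mutation (inv/inv). Both groups carried the transgene inv-deltaC::GFP, which encodes inversin without its C-terminus. In inv/inv mice the kidneys become cystic although the transgene is present and the body's left-right layout is normal. Mice were 4 weeks old by the series design. The cystic sample is labelled female and 28 days old, while sex and day of age are not on the control label. Neither the number of mice behind each array nor the promoter of the transgene is given in the sources used here.

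TNF ligands are mostly trimeric proteins of the cell surface that are also shed, and each binds 1 or a few receptors of the TNFRSF family. The receptors recruit TRAF proteins and the ubiquitin ligases cIAP1 and cIAP2, encoded by Birc2 and Birc3, which pass the signal to kinases that free NF-κB dimers from IκB proteins. In the canonical branch the RelA subunit is released from IκBα, and in the alternative branch the Nfkb2 product is processed and enters the nucleus with RelB. NF-κB induces several of its own inhibitors, among them the genes of IκBα and of A20 (Tnfaip3), and in the kidney the pathway is best known from inflammation and tubular injury.

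With 1 array per group there is no replicate spread and no test, and the number of arrays limits the precision. Values are linear MAS5 signals. A signal under the array's median, 55.4 in the control and 61.9 in the cystic array, was treated as not measured, and these medians are called floors. Where only 1 of the 2 signals reached its floor, the other was raised to it, so the ratio is a lower limit of the size of the difference and is called a bound. Differences are log2 ratios of cystic over control, and a gene was counted as higher or lower only at 2-fold or more. Different probe sets of a gene, which read the same RNA, differed in log2 ratio with an SD of 0.29, pooled over 4694 genes. This technical spread is the only measured error. It comes from the same arrays, so it holds no spread between labellings, arrays or animals. A gene takes the value of its brightest probe set after the floor.

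The mutated gene, Invs, read 118 on the control array and 15.9, under the floor, on the cystic array at its brightest probe set; whether those probes also bind the transgene's transcript was not tested. Kidney markers were present on both arrays: all 6 proximal tubule and all 5 distal nephron markers lay above the floor. The labelled sex of the cystic array was not borne out by its sex-linked genes. Xist, the transcript of the inactive X chromosome of females, had 57.4 in the cystic array, under its floor, and 387 in the control. The Y-linked genes Eif2s3y, Kdm5d and Uty lay above the floor on both arrays, with 132, 152 and 206 in the control and 142, 194 and 198 in the cystic array. The control array thus had signal of both Xist and Y-linked genes, and the cystic array of the Y-linked genes only. Whether the samples differed in sex make-up, and whether any gene below differs with sex, was not tested.

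Members of the TNF family and NF-κB pathway had mostly higher signals in the cystic kidney, and no ligand was counted past 2-fold with the floors used here; Tnfsf8 was with the floor at the 40th percentile (1.53) and, like Tnfsf9, with no floor (1.63 for Tnfsf8). Of 31 measured members 8 (25.8%) were at least 2-fold higher, where 7.06% of 12014 measured genes were, and none was at least 2-fold lower, where 3.78% of all genes were. The 8 were the receptor Tnfrsf12a, the ubiquitin ligase genes Birc2 and Birc3, the NF-κB subunits Nfkb2 and Relb, the IκB proteins Nfkbiz and Nfkbie, and the NF-κB inhibitor Tnfaip3. The members' median log2 ratio was 0.65, beside 0.09 over all measured genes. Of these 8, Nfkb2 and Nfkbie reached the floor through the cystic array alone, as did 4 of the 31. Of the 25 members above the floor on both arrays 6 (24%) were at least 2-fold higher, beside 6.15% of all such genes, and none was at least 2-fold lower, beside 3.97%. Of the same 25 members, 21 had a log2 ratio above 0 (84%), beside 56.8%. Counted by probe set, 11 of 52 measured member probe sets (21.2%) were at least 2-fold higher, beside 6.19% of all, and none was at least 2-fold lower, beside 3.37%.

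The 8 genes were not equally firm. Tnfrsf12a, Nfkbiz, Tnfaip3 and Birc3 were past 2-fold under every alternative of scaling, floor and probe set that gave them a value. Tnfaip3 and Birc3 each had only 1 measured probe set, so the choice of probe set could not change their values. With each array centred on its median, Birc2 (0.96), Relb (0.94) and Nfkbie (0.90, a bound) were under 1 on the log2 scale. This left 5 members counted as higher, with 5.07% of all genes higher and 5.59% lower. That centring moved the median of all genes from 0.09 to -0.07. In bulk kidney RNA, more cells of a type and more RNA per cell cannot be told apart.

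**Figure D1:**
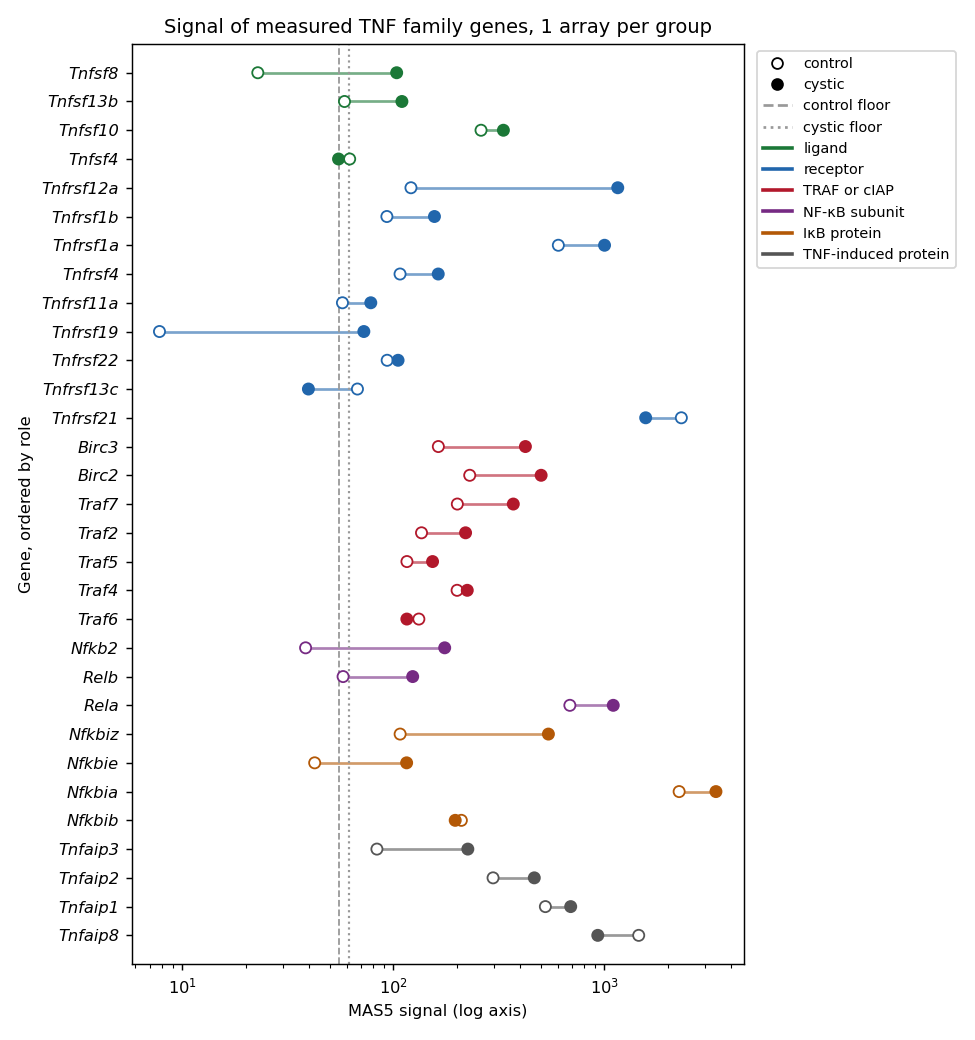
MAS5 signal (log axis) of the 31 measured members on the control array (open points) and the cystic array (filled points), coloured by role, with each array's floor as a vertical line. Tnfrsf12a has the widest gap among genes above both floors, from 121 to 1157, while Tnfrsf21, Tnfaip8, Traf6 and Nfkbib are the members above both floors whose cystic signal is the lower one.

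The 4 measured ligands gave no difference counted at 2-fold. Tnf, the founding ligand made mainly by macrophages, reached the floor on neither array (45.8 in the control, 25.1 in the cystic kidney). Tnfsf8, the ligand of CD30, went from 22.8 to 104 and was at least 1.87-fold higher, a bound that does not say whether the difference passed 2-fold. Tnfsf13b, the B cell survival factor BAFF, was 1.87-fold higher (58.7 to 110), with a control signal close to the floor. Both had low signals in the control kidney and signals well above the floor in the cystic one. Tnfsf10, the death ligand TRAIL, had 260 and 332 at its brightest probe set, and its 3 probe sets had log2 ratios between 0.35 and 0.63. Tnfsf4, the ligand of OX40, had 62.1 and 55.0, so close to the floors that no direction is given. Tnfsf9 (17.2 and 53.8), Tnfsf11 (1.3 and 2.9) and Tnfsf14 (5.2 and 4.8) were under the floor on both arrays.

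Tnfrsf12a, the receptor of the cytokine TWEAK, known also as Fn14 and known for its induction in injured tissue, stood apart from the other 8 measured receptors. Its brightest probe set went from 121 in control kidney to 1157 in cystic kidney, a log2 ratio of 3.25. Its other probe set, whose suffix marks probes that may bind other transcripts, went from 131 to 921, a log2 ratio of 2.82. The gap of 0.44 between the probe sets was small beside either difference between the arrays. Its ligand TWEAK (Tnfsf12) was read only by probe sets that name several genes, and is not analysed here.

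The receptors of TNF itself had values under 2-fold at their brightest probe sets. Tnfrsf1a, the widely expressed receptor with a death domain, went from 605 to 1001, a log2 ratio of 0.73. Tnfrsf1b, the receptor found mainly on immune and endothelial cells, went from 93.2 to 157 at its brightest probe set and from 18.2 to 97.7 at the other, log2 ratios of 0.75 and, as a bound, 0.82. At the brightest probe sets both differences were above the technical spread of 0.29; the bound at the second Tnfrsf1b probe set does not say whether 2-fold was passed.

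Among the remaining receptors, Tnfrsf4, the T cell receptor OX40, had 108 and 163 (0.60), and Tnfrsf11a, the RANK receptor of osteoclast precursors, 57.4 and 78.2 (0.45). Tnfrsf19 went from 7.8 to 72.5 and was at least 1.31-fold higher, a bound held down by the low cystic signal. No other Tnfrsf19 probe set reached a floor. Tnfrsf22, a decoy receptor of TRAIL in mice, had 93.5 and 105 (0.17), and its ratio was slightly below 0 under quantile normalization (-0.028) and loess (-0.0060). Tnfrsf13c, the BAFF receptor of B cells, had 67.6 on the control array and only 39.6 on the cystic array, a bound of -0.13. Tnfrsf21, the death receptor DR6, had the lowest receptor ratio: 2315 and 1569 at one probe set and 1801 and 1255 at the other, log2 ratios of -0.56 and -0.52. It was lower on both probe sets, by more than the technical spread and less than 2-fold.

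The 10 receptors under the floor on both arrays were Tnfrsf8, Tnfrsf9, Tnfrsf10b, Tnfrsf11b, Tnfrsf13b, Tnfrsf14, Tnfrsf17, Tnfrsf18, Tnfrsf23 and Tnfrsf25. They include receptors known from T and B cells, such as Tnfrsf9 (4-1BB), Tnfrsf17 (BCMA) and Tnfrsf18 (GITR). The brightest values among the 10 were 51.1 in the control, for Tnfrsf23, and 56.8 in the cystic kidney, for Tnfrsf25. For receptors and ligands of which only 1 partner was measured, no statement on the pair can be made.

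**Figure D2:**
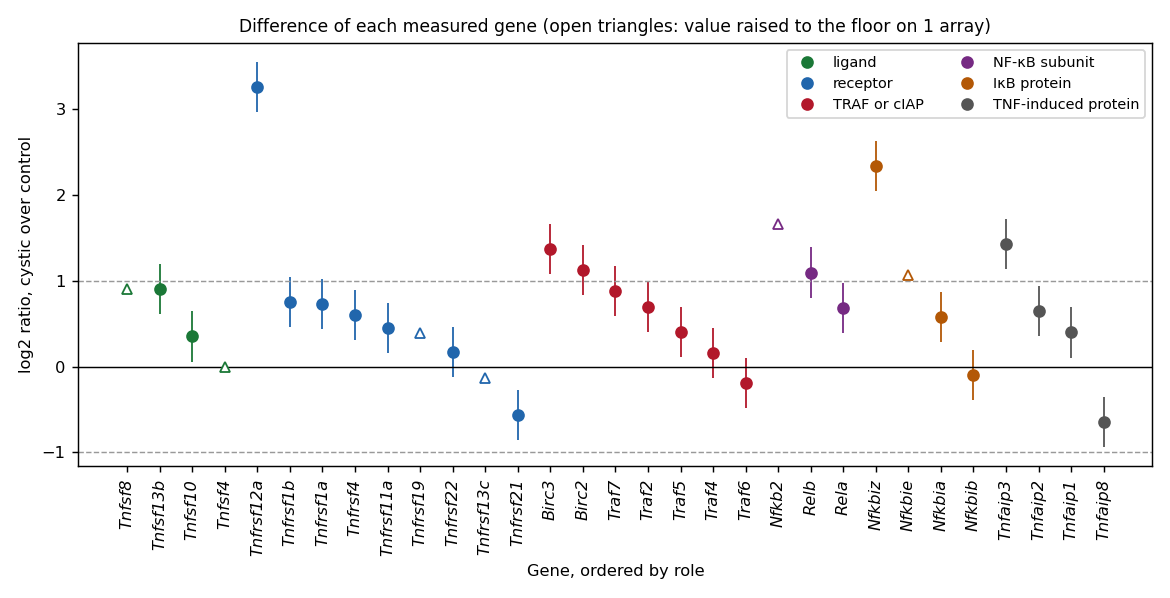
Log2 ratio of cystic over control for the 31 measured members by role. Filled points are genes above the floor on both arrays, with bars of 0.29 for the pooled SD between probe sets; open triangles have 1 signal raised to the floor; dashed lines mark 2-fold. Tnfrsf12a (3.25) and Nfkbiz (2.33) lie highest, and Tnfaip8 (-0.64) lowest.

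Of the 7 measured adaptors, 2 were at least 2-fold higher, beside 7.06% of all measured genes. Both were genes of the cellular inhibitor of apoptosis proteins. Birc3 went from 163 to 422, a log2 ratio of 1.37, and Birc2 from 230 to 501, a log2 ratio of 1.12. The second Birc3 probe set was under the floor on both arrays (1.9 and 1.4). In the RefSeq annotation of the GRCm38.p6 assembly Birc2 and Birc3 are neighbouring genes, the only neighbours among the members with both genes measured. The proteins are close paralogs, and whether the probes tell their transcripts apart was not tested.

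The measured TRAF adaptors were within 2-fold, and Traf3 was not read. Traf7 had 201 and 370 (0.88), and Traf2, the main adaptor of cIAP proteins at TNF receptors, 136 and 220 (0.69). Traf5, which shares receptors with Traf2, had 116 and 153 (0.40). Traf4 had 201 and 224 (0.16), a ratio that median centring put at -0.00016, and its other probe set had -0.021. Traf6, the adaptor shared with Toll-like and interleukin receptors, had 132 and 116 (-0.19) at its brightest probe set. Its 4 measured probe sets did not have the same sign, with log2 ratios from -0.19 to 0.70, so no direction is given for it. Traf1, an adaptor itself induced by NF-κB, was under the floor on both arrays, with 5.9 and 24.2 at one probe set and 23.6 and 50.4 at the other.

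Among the NF-κB subunits, Nfkb2 and Relb of the alternative branch were counted past 2-fold, neither under every alternative. Nfkb2, which encodes p100 and its product p52, went from 38.4 to 175 at its brightest probe set and was at least 3.16-fold higher. Its other probe set, marked as possibly shared, went from 71.5 to 104, a log2 ratio of 0.54, so the probe sets lay on different sides of 2-fold. With the floor at the 40th percentile the second probe set was the brightest, and Nfkb2 took the value 0.54. Relb, the partner of p52, went from 57.8 to 124, a log2 ratio of 1.10, with a control signal close to the floor of 55.4. It fell short of 2-fold with median centring (0.94), quantile normalization (0.91) and loess (0.93). With the floor at the 60th percentile its ratio was only a bound (0.49). Rela, the main subunit of the canonical branch, had 686 and 1101, a log2 ratio of 0.68. Rel was under the floor on both arrays (8.0 and 4.4). All 3 measured subunits were higher in the cystic kidney under each scaling, Relb and Nfkb2 from a weak control signal and Rela from a clear one. Nfkb1 was not read, so the subunits of the branches are not compared in full.

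The 4 IκB proteins had values from -0.10 to 2.33. Nfkbiz, a nuclear IκB protein that acts as a coactivator of some NF-κB target genes, was read by 3 probe sets. They went from 108 to 543, from 58.2 to 521 and from 62.9 to 242, log2 ratios of 2.33, 3.16 and 1.94. All were past 2-fold, and the spread of 1.22 between them is the largest among the members with several measured probe sets. Nfkbie, which encodes IκBε, went from 42.4 to 116, at least 2.09-fold higher, and at its other probe set from 12.1 to 109, a bound of 0.98. Its bound was under 2-fold with median centring (0.90), quantile normalization (0.88), loess (0.90) and the floor at the 60th percentile (0.39). Such a bound does not say whether 2-fold was passed. With the floor at the 40th percentile Nfkbie had 1.45. Nfkbia, the gene of IκBα, was read by 5 probe sets, all above the floor, with log2 ratios from 0.17 to 0.66. Its brightest went from 2260 to 3376, a log2 ratio of 0.58. Nfkbib, the gene of IκBβ, had 210 and 196 (-0.10). Thus Nfkbiz passed 2-fold at each probe set, and Nfkbie is known only as a bound that lay near 2-fold. Nfkbia was higher at all its probe sets without passing 2-fold, and Nfkbib differed by less than the technical spread.

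Of the proteins named for their induction by TNF, 1 of 4 measured was at least 2-fold higher, beside 7.06% of all measured genes. Tnfaip3, which encodes A20, an enzyme that edits ubiquitin chains and ends NF-κB signalling, went from 83.6 to 225, a log2 ratio of 1.43. Its other probe set went from 13.0 to 58.5, both under the floor. Tnfaip2 went from 297 to 465 (0.65), with 0.59 at its second probe set, and Tnfaip1 from 525 to 692, with log2 ratios of 0.24 to 0.46 over 3 probe sets. Tnfaip8 had 1454 and 930, a log2 ratio of -0.64, the lowest of all members. Tnfaip6, which encodes the hyaluronan-binding protein TSG-6, was under the floor on both arrays (21.1 and 37.9). The name of the group thus covers genes that went both ways.

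**Figure D3:**
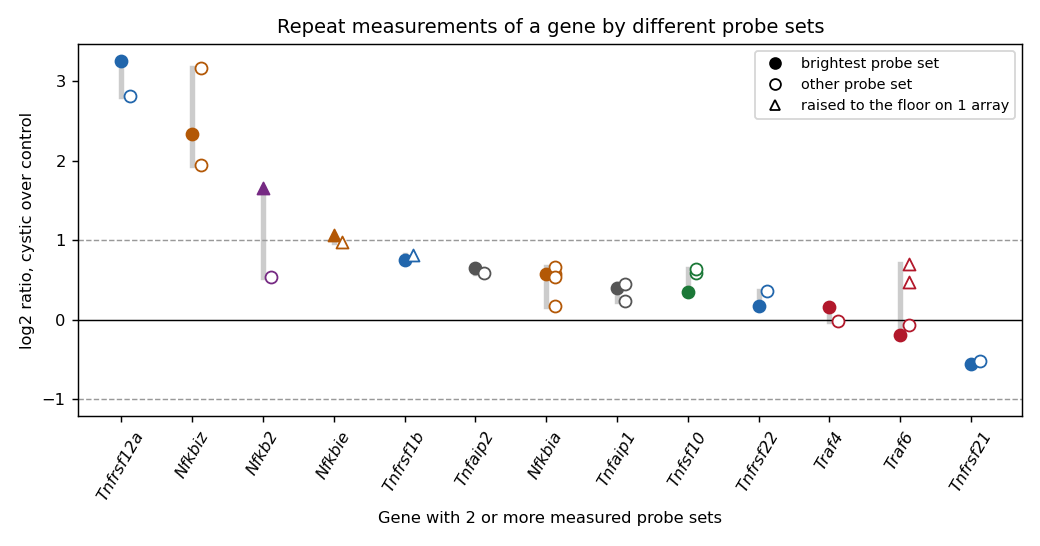
Log2 ratio of cystic over control at each measured probe set of the 13 members with 2 or more of them; filled symbols are the brightest probe set, open symbols the others, triangles bounds. The probe sets had the same sign in 11 of the 13 genes, all but Traf4 and Traf6. For Nfkb2 a bound past 2-fold (1.66) stands beside a value under it (0.54).

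The promoters of the members were read for the κB motif, the element that NF-κB dimers bind, since genes of NF-κB feedback were among the higher members. The motif was searched by its general form of 10 bases, a run of G, a purine, a pair of any bases, a pair of pyrimidines and a pair of C, on both strands, and overlapping matches were joined. RefSeq promoter windows of 300 bases (250 before and 50 from the start site, GRCm38.p6) were found for 40 of the 48 members; Nfkbiz, Relb, Tnfaip8, Tnfrsf10b, Tnfrsf11b, Tnfrsf22, Tnfsf4 and Tnfsf9 had no entry. A match lay in at least 1 window of 9 of the 40 genes (22.5%), beside 9.55% of 27025 genes of the table. The 9 were Nfkb2, Rel, Nfkbia, Nfkbie, Tnfaip2, Tnfaip3 and the receptors Tnfrsf8, Tnfrsf9 and Tnfrsf25. None of the 6 ligands and none of the 8 adaptors with an entry held one. Of the 6 genes at least 2-fold higher that had an entry, 3 held a match (Nfkb2, Nfkbie and Tnfaip3) and 3 did not (Tnfrsf12a, Birc2 and Birc3). Of the 20 other measured genes 2 held one. Among the 14 members with an entry that were not measured, 4 held one (Rel, Tnfrsf8, Tnfrsf9 and Tnfrsf25). A match is a description of these letters and no measured site.

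Shown here are the windows of the 3 genes past 2-fold with a match, and that of Nfkbia, the IκB gene with a match that stayed under 2-fold. Matches are in capitals, 5′ to 3′ on the gene's strand.
Nfkb2, chr19:46304487-46304786, plus strand: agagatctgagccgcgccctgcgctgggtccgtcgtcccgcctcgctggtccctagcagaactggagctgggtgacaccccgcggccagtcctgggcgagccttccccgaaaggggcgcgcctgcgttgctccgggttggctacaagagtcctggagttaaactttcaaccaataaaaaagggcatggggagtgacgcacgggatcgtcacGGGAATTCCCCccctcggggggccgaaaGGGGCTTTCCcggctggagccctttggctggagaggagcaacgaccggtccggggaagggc
Nfkbie, chr17:45555450-45555749, plus strand: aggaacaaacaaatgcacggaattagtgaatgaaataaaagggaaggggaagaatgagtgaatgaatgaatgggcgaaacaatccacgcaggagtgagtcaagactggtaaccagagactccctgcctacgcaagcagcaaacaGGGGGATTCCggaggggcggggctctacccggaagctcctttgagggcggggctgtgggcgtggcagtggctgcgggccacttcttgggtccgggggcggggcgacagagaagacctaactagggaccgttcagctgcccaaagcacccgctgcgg
Tnfaip3, chr10:19015361-19015660, minus strand: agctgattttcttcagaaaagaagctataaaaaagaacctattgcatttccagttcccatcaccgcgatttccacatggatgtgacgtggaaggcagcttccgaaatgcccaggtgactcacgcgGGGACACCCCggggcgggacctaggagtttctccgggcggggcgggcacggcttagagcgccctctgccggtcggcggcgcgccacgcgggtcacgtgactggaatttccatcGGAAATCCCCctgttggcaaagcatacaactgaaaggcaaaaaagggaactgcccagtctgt
Nfkbia, chr12:55492598-55492897, minus strand: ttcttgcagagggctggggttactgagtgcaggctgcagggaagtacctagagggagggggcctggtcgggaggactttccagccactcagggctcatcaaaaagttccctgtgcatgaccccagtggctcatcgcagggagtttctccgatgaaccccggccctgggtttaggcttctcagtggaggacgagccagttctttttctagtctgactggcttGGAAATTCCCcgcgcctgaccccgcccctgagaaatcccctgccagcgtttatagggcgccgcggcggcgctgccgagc
Counted from the start site, with negative positions before it, the Nfkb2 matches begin at -39 and -11, those of Tnfaip3 at -125 and -12, that of Nfkbie at -106 and that of Nfkbia at -29. Nfkb2 has 2 further start sites in the table, both with a match in their windows, and Tnfaip3 has 1 further start site, without one.

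Of the listed genes of TNF receptor signalling that carry no family symbol, no measured one was counted past 2-fold. The list held 30 measured genes, among them the adaptors Tradd and Fadd and the kinase subunits Ikbkb and Ikbkg. Chuk, a further IκB kinase, and Ripk1 had no probe set naming them alone. Ikbke, Edaradd and Mlkl were under the floor on both arrays. The count of 0 stands beside 7.06% of all genes higher and 3.78% lower. The median log2 ratio of the 30 genes was 0.20, beside 0.09 over all measured genes. The highest were Tnip2 (70.9 to 137, 0.95) and Tnip1 (246 to 467, 0.92), whose products bind A20. The lowest was Itch, a ubiquitin ligase that works with A20, at -0.92 (672 to 356). The kinase subunits Ikbkb and Ikbkg had 0.26 and -0.47, and Map3k14, the NIK kinase of the alternative branch, 0.33. Of 14 ligands and receptors of the superfamily with other names, 10 reached the floor on neither array, including Fas, Fasl, Lta and Ltb. Over all genes 66.0% reached the floor on at least 1 array. Ltb had 3.1 in the control and 58.6 in the cystic array, close to the cystic floor of 61.9. The lymphotoxin receptor Ltbr had 683 and 813 (0.25), Relt 133 and 129 (-0.040), and Cd40 went from 49.0 to 73.2, at least 1.32-fold higher. Ngfr had signals of 57.1 (control) and 33.9 (cystic), both under the cystic floor, and gives no direction.

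Genes known as NF-κB targets were higher in part. Of 26 measured targets 11 were at least 2-fold higher, beside 7.06% of all genes, none was at least 2-fold lower, beside 3.78%, and the median log2 ratio was 0.79. Of the 11, Lcn2, Bcl3, Cd44 and Cd83 reached the floor through the cystic array alone; of the 18 targets above both floors 7 were at least 2-fold higher, beside 6.15% of all such genes. Lcn2, a secreted protein of tubular injury, had by far the widest difference, from 34.7 to 4610. The adhesion molecules Icam1 and Vcam1 went from 103 to 666 (2.70) and from 114 to 604 (2.40), and Bcl3, a nuclear IκB protein, from 36.6 to 293, at least 5.28-fold higher. The lowest was Sod2, the mitochondrial superoxide dismutase, with 2862 and 1625 (-0.82). Several classical targets, Il6, Nos2, Ptgs2, Sele, Csf2, Ccl20 and Saa3, were under the floor on both arrays.

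**Figure D4:**
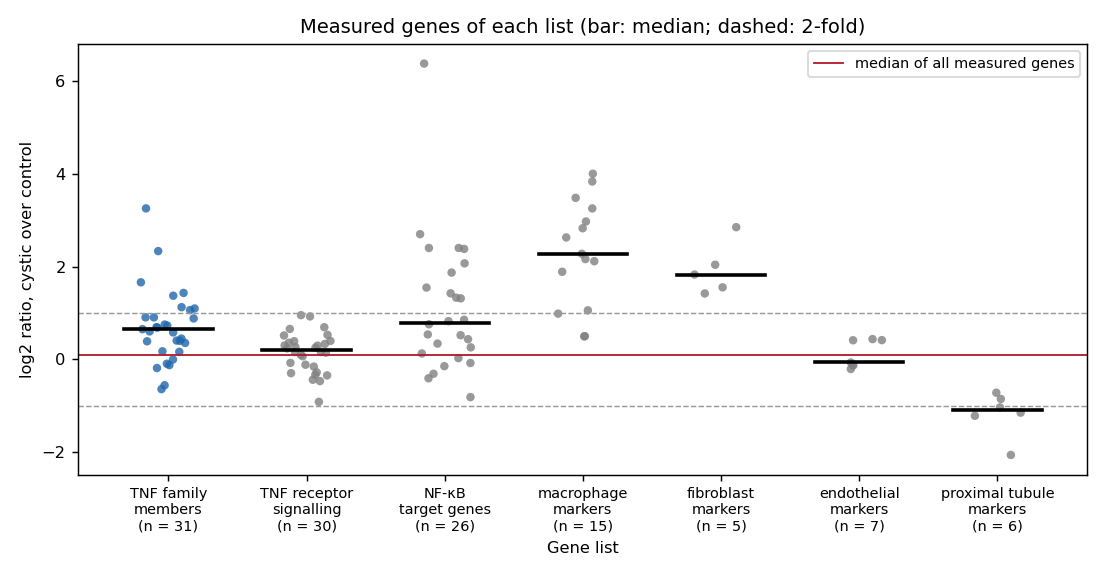
Log2 ratio of cystic over control of each measured gene in 7 lists, with the median of a list as a black bar, the median of all genes (0.09) as a red line and 2-fold as dashed lines. The TNF family members have a median of 0.65, between that of other receptor signalling genes (0.20) and that of NF-κB targets (0.79), and macrophage markers lie higher (2.28).

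Markers of several cell types also differed between the arrays, not all in the same direction. Over all measured genes 7.06% were at least 2-fold higher and 3.78% at least 2-fold lower. Macrophages are known to carry several TNF receptors and ligands. All 15 of their markers were measured and 12 were at least 2-fold higher. Of the 10 above both floors 9 were at least 2-fold higher, beside 6.15% of all such genes. The others were measured through the cystic array alone. The summed signal of all 15 went from 2370 in control to 11859 in cystic kidney. All 5 fibroblast markers were at least 2-fold higher, with a summed signal of 4915 and 19282. Of 6 proximal tubule markers 4 were at least 2-fold lower, with a summed signal of 27475 and 13679. Of 5 distal nephron markers 1, Calb1, was at least 2-fold lower (-2.03), with a summed signal of 23527 and 17166. None of 7 endothelial markers was past 2-fold (2744 and 2749). Of the lymphocyte markers 7 of 8, and of the neutrophil markers 6 of 7, reached the floor on neither array, with summed signals of 245 and 174 and of 171 and 196. No marker had a signal of 0. The part of these cells in the differences of the TNF family genes was not tested.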

How the data were processed

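Biotin-labelled kidney RNA was measured on 1 array per group. The authors deposited an intensity per probe set on a linear scale, made with MAS5 per the submitters' processing notes; its version, its scaling target and its detection calls are not given in the sources used here. Of 45101 probe sets 64 control probe sets were left out. The deposited scaling was kept, since the 2% trimmed means were 178 and 181. Gene names came from the array's annotation and were brought up to date with a RefSeq table (GRCm38.p6), which held the gene of 34741 of the 34945 probe sets naming 1 gene. Probe sets naming several genes, 3 of them with a family symbol, were left out. Signals were raised to the floor, the array's median, and each gene was read from its then brightest probe set (mean log2 of both arrays). The fold limit of 2 stands in for a test, and no p-value is given. The steps were tested on simulated arrays in which only genes with a probe set of clear signal were changed. Recovery of changes in genes of weak signal was not tested. The steps were run in Python 3.11.15 with numpy 2.4.6, pandas 2.3.3 and statsmodels 0.14.6. The members and gene lists were chosen with earlier results of these data known. All members past 2-fold, read as bounds or with disagreeing probe sets were named, with the highest and lowest of each role, and up to 4 genes of each list in each direction; genes named beyond this rule, and the sex-linked genes, were picked once values were known. The alternatives were scaling (median, trimmed mean, quantile, loess), the floor, the choice of probe set and a 1.5-fold limit.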

Additional observations from a re-analysis of the deposited data

How the results depend on the processing

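No paired analysis was possible because each group has 1 array. The count of 8 members at least 2-fold higher became 5 with each array centred on its median, beside 5.07% of all genes. With the floor at the 60th percentile it was 5, beside 6.06%. It lay between 6 and 10 under the other alternatives at 2-fold in which every gene keeps a value, beside 5.54% to 7.27%. At a limit of 1.5-fold 17 members were higher and 1, Tnfaip8, was lower, with 16.4% and 10.8% of all genes past that limit. The members' median log2 ratio stayed between 0.48 and 0.67. By the second brightest measured probe set, which 13 members had, 2 were at least 2-fold higher, Tnfrsf12a and Nfkbiz, beside 5.56% of 5428 genes. With the floor at the 60th percentile Nfkb2, Nfkbie and Relb had log2 ratios of 0.99, 0.39 and 0.49; raised control signals shrink such ratios by construction. With no floor and a pseudocount of 16, Nfkb2 had 0.46, because its other probe set was then the brightest. Without probe sets ending in _s_at or _x_at the count stayed 8. Genes with a control signal under the floor are known only as bounds, and values of genes near it, such as Relb and Tnfsf13b, move with the floor. Nothing here measures the spread between animals.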

Other observations

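Relatives whose symbols the choice of members did not cover were looked at after the values were seen. Of 8 such genes 7 were measured and none was past 2-fold, beside 7.06% of all measured genes higher and 3.78% lower. All 7 had log2 ratios above 0, from 0.025 to 0.81, beside 57.8% of all measured genes. Tnfaip8l2 and Nfkbid reached the floor through the cystic array alone, so their ratios lie above 0 by construction. Tnfaip8l1 went from 82.3 to 145 (0.81), while its relative Tnfaip8 was the lowest member (-0.64). Tnfaip8l2, known from immune cells, went from 9.9 to 68.4, at least 1.23-fold higher, and Nfkbid, a further nuclear IκB protein, from 35.6 to 78.6, at least 1.42-fold higher. Traf3ip2, an adaptor of the IL-17 receptor, went from 99.3 to 150 (0.59).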
